A study of Mus musculus with 8 samples.

Results

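CD45+/Sca1+ cells of uninjured mouse skeletal muscle were compared with CD45+/Sca1+ cells of the bone marrow across all genes of an Affymetrix mouse 430A array. The comparison takes 4 of the 8 arrays of the series, 2 of muscle and 2 of bone marrow, and covers 12393 named genes, of which 9486 reached the intensity filter and were tested. All mice were C57BL/6 and 6 to 8 weeks old. The donors of these 4 arrays carried no injury and no transplant in their labels. The other 4 arrays, 2 of cardiotoxin-injured muscle and 2 of cardiotoxin-injured muscle of bone marrow transplanted mice, entered the shared estimate of the spread and the intensity filter that decided which genes were tested. The labels do not say whether arrays came from separate animals or from pools, so a p-value here reflects only how far these arrays differ, and that may be technical variation.

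CD45 is the surface phosphatase that marks blood-derived cells, and Sca1 is a surface protein of stem and progenitor cells that mature leukocytes and many vessel-lining and connective tissue cells also carry. Marrow cells with both markers are known to include stem cells, lymphoid progenitors, activated lymphocytes and plasmacytoid dendritic cells, the main producers of type I interferon. Muscle at rest holds resident macrophages and mast cells near its vessels and sheaths, and such cells are known as sources of chemokines and growth factors.

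Ptprc, which encodes CD45, was measured at 5007 and 5727 in bone marrow and at 6476 and 4924 in muscle, in the linear intensity units of the deposited table. Both tissues therefore overlapped for the gene of the sort marker (adjusted p = 0.891 in limma's moderated test). The array annotation used here names no probe set for Ly6a, the gene of Sca1. Each array had been scaled to the same trimmed mean, and array medians ran from 59.1 to 75.7. The 2 bone marrow arrays correlated at 0.948 and the 2 muscle arrays at 0.895 over log2 values of all probe sets, against 0.841 to 0.900 for pairs of 1 array from each tissue. The Gapdh control probe sets had 3' to 5' ratios of 24.4 and 10.7 in bone marrow and 46.9 and 13.6 in muscle, and those of the injured arrays lay between 0.808 and 0.882. Those of actin were 5.75 and 5.68 in bone marrow and 19.0 and 10.1 in muscle. The actin ratio was thus higher on both muscle arrays and moved with the comparison. The Gapdh ratio did not separate the tissues, as 24.4 on bone marrow array 1 exceeded 13.6 on muscle array 2. Every bone marrow and muscle array exceeded all injured arrays in the Gapdh and the actin ratio. A high ratio of this kind is a sign of poorer RNA. Both ratios were highest on muscle array 1, and their part in the results was not tested.

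The upstream sequences below belong to members of 2 gene groups described further on, chemokines, of which many were higher in muscle, and plasmacytoid dendritic cell markers, of which many were lower. They are the RefSeq sequences of build GRCm38.p6, 250 bases before the annotated start, written 5' to 3' in the direction of the gene. Capitals mark matches, on either strand, to the kappa B type of motif (3 G, any 2 bases, 3 T and 2 C) in the chemokines and to CACCTG (an E-box) in the marrow markers.
Cxcl1, chr5:90890995-90891244, plus strand: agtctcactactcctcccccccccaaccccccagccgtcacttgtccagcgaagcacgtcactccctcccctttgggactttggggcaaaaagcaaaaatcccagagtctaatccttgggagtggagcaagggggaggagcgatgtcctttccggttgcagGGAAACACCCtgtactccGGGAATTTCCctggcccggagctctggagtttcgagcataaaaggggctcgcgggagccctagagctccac
Cxcl2, chr5:90903649-90903898, plus strand: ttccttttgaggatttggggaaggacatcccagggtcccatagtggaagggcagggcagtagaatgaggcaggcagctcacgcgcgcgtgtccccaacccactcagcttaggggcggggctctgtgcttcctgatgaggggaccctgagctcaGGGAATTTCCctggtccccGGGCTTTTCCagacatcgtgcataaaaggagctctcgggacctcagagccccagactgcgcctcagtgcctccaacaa
Ccl9, chr11:83578637-83578886, minus strand: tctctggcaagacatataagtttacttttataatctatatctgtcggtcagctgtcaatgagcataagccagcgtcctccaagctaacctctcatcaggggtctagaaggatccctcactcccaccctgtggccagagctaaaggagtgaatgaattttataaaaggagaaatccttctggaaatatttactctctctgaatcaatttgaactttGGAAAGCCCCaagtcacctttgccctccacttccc
Ccr9, chr9:123766961-123767210, plus strand: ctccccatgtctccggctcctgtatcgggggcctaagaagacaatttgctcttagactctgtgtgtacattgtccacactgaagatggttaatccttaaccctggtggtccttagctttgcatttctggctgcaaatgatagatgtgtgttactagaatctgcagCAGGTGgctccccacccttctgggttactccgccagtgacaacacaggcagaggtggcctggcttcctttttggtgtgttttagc
Bst2, chr8:71537473-71537722, minus strand: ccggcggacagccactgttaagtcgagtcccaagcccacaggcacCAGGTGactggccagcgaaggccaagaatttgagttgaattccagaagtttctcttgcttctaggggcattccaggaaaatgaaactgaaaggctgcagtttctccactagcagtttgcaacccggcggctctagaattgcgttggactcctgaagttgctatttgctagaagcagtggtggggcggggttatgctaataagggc
Klk1, chr7:44225110-44225359, plus strand: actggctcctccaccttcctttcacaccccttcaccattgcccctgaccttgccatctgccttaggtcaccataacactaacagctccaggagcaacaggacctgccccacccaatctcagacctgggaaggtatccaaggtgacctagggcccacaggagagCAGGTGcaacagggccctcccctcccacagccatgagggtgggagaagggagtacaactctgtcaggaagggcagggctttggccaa
Cxcl1 held the kappa B type match at -89 and -71 from the start, Cxcl2 at -97 and -78, and Ccl9 at -35. Of the 17 chemokines called higher in muscle (5.72% of all tested genes were called higher), 12 had an entry in the promoter table, and 3 of them (25%) held this motif, against 1.44% of 7658 tested genes with an entry and 4 of 24 (16.7%) of all chemokines on the array with one. Of the 8 marrow markers called lower in muscle (1.38% of all tested genes were called lower), 6 had an entry, and 3 of them (50%) held CACCTG, against 14.8% of the tested genes. These 2 motifs were chosen for printing from 5 searched, after the matches were seen. The others (TGANTCA of the AP-1 type, GAGGAAGT of the PU.1 type and TATAAA, the TATA box) were held by 2, 1 and 3 of the 12 chemokine promoters, with 4.88%, 2.29% and 4.77% of tested genes. Among all chemokines on the array with an entry, the shares were 12.5%, 4.17% and 33.3%. Of the 6 marrow marker promoters, 0, 0 and 1 held them. CACCTG was held by 0 of the 12 chemokine promoters, and the kappa B type by 0 of the 6 marrow marker promoters. A match describes the letters only, and 250 bases leave out distant elements.

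Of the 9486 tested genes, 543 (5.72%) were higher and 131 (1.38%) lower in muscle at an adjusted p under 0.05. When only the 4 compared arrays were fitted, 189 (1.99%) were higher and 12 (0.127%) lower. Array weights estimated from the residuals were 0.769 for the bone marrow and 0.36 for the muscle arrays, against 1.82 and 1.98 for the injured groups, so the injured arrays repeated more closely. The SEs and adjusted p-values printed here share that tighter spread: the median SE of a log2 difference was 0.439 over 8 arrays and 0.503 over 4, and the adjusted p of Cxcl1 and Retnla was 4.24e-05 over 8 arrays and 0.014 over 4. Leaving out bone marrow array 1 gave 318 higher and 23 lower genes, and leaving out bone marrow array 2 gave 316 and 42. Leaving out muscle array 1 gave 635 and 239, and leaving out muscle array 2 gave 828 and 1210. A fit without 1 array also estimates the spread anew, so a lost call need not mean that this array carried the difference. Counts of list members in these fits and in the fit to 4 arrays, given below, are to be read beside these counts over all genes. The log2 difference of Flt3 was -2.44 and -2.36 without bone marrow array 1 and 2, against -2.40 in the main fit. That of Cxcr3 was -1.68 and -2.33 without the same arrays. Under every setting tried, 154 of the 543 higher and 6 of the 131 lower genes kept their call. The 6 that stayed lower were Ccr9, Dntt, Cox6a2, Igha, D13Ertd608e and Gimap7. A second probe set existed for 212 of the genes called higher and moved the same way for 204 (96.2%), and for 30 of 35 (85.7%) of those called lower. In the following, a fold is given as "at least" where both arrays of the lower tissue lay under 38.4, the filter value, and every fold is on the scale of intensity plus 4.

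**Figure D1:**
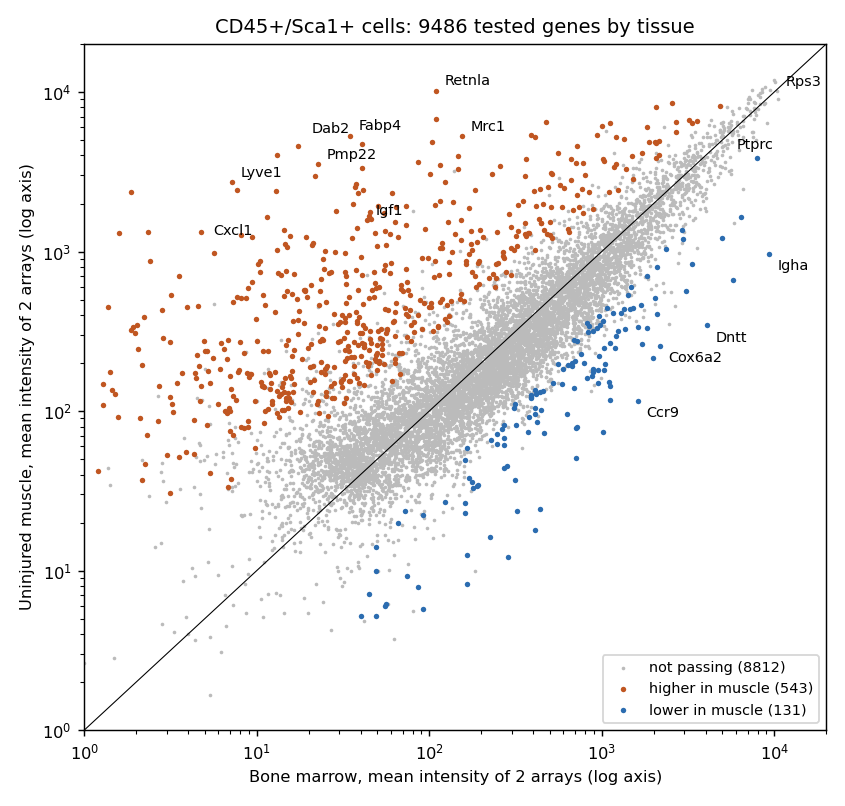
Mean intensity of the 9486 tested genes in bone marrow (x axis) and uninjured muscle (y axis), both on log axes, with 543 genes called higher in muscle in orange, 131 called lower in blue and the rest in grey. Genes with low marrow values extend far above the diagonal of equal intensity, and fewer genes lie far below it.

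Chemokines, the secreted proteins that direct leukocyte movement, were the group with the highest share of higher members among the secreted factors. Of 34 on the array 30 passed the filter, and 17 of the 30 (56.7%) were higher in muscle and none was lower, with a median log2 difference of 2.32 against -0.06 over all tested genes. The count was 16, 14, 16 and 18 without bone marrow array 1, bone marrow array 2, muscle array 1 and muscle array 2, and 9 in the fit to the 4 arrays alone. Cxcl1, a neutrophil attractant, read 10.9 and 12.1 in bone marrow and 1485 and 1801 in muscle. It was thus near the bottom of the scale on both marrow arrays and at least 38.7-fold higher in muscle (adjusted p = 4.24e-05). Cxcl2, a second neutrophil attractant encoded beside it, read 668 and 1563 in bone marrow and 5807 and 7071 in muscle (adjusted p = 0.00576 over 8 arrays and 0.0588 over 4).

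Ccl2, a monocyte attractant, rose from 88.1 and 101 in bone marrow to 1509 and 1277 in muscle, 14.1-fold (log2 difference 3.82, SE 0.22, adjusted p = 8.84e-05). Ccl7, a related attractant, rose from 8.09 and 21.7 to 819 and 1301, at least 24.5-fold. Ccl12 rose from 1.07 and 1.7 to 333 and 563, at least 10.3-fold. No marrow value of these genes overlapped a muscle value, and each call held under every setting. Ccl8, a ligand of receptors on monocytes and T cells, rose from 70.4 and 76.4 to 1287 and 2564. Ccl24, an eosinophil attractant, rose from 20.2 and 20.9 to 528 and 699, at least 14.4-fold. Pf4, a chemokine of platelets and some macrophages, rose from 295 and 657 to 5447 and 7520. Cxcl12, the retention factor for stem cells in the marrow, read 37.8 and 27.5 in marrow-derived cells and 991 and 499 in muscle-derived cells, at least 16.7-fold higher in muscle. The T cell and monocyte attractants Ccl3, Ccl4 and Ccl5 did not pass the test: Ccl5 read 2312 and 3794 in bone marrow and 1187 and 1783 in muscle (adjusted p = 0.144). Ccl3, Ccl4, Ccl5, Cxcl2, Pf4 and Cxcl12 were named after their values were seen.

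Among interleukins, colony stimulating factors and TNF family ligands, 35 of 47 passed the filter, and 9 (25.7%) were higher and 1 lower in muscle. Without bone marrow array 2 the higher count was 6, and in the fit to 4 arrays it was 4, with none lower in either. Csf2, the granulocyte-macrophage growth factor, read 10.3 and 4.19 in bone marrow and 570 and 394 in muscle, at least 11.3-fold higher (adjusted p = 0.000705). Tslp, an epithelial and stromal cytokine, read 1.56 and 1 in bone marrow and 161 and 134 in muscle. Il6 read 22.5 and 28.1 in bone marrow and 595 and 369 in muscle, at least 11.2-fold higher. These marrow values all lay under the filter value, so only a lower bound on each fold can be given. Kitl, the ligand of the Kit receptor of stem and mast cells, read 19.9 and 18.5 in bone marrow but 2076 and 389 in muscle. This was at least 21.3-fold higher, with a wide gap between the muscle arrays. Its 2 other tested probe sets gave smaller log2 differences, 0.41 and 1.94, against 5.29 for this one. Il1b rose from 814 and 614 to 2446 and 2056 (adjusted p = 0.00311, and 0.109 over 4 arrays). Ifng, the lymphocyte interferon and the member that fell, read 1063 and 1345 in bone marrow and 387 and 206 in muscle (adjusted p = 0.0228). Its call was lost without bone marrow array 1 (adjusted p = 0.0857) or array 2 (0.133).

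Of 50 growth factors tested, 8 (16%) were higher and none was lower, with 27 more under the filter. Igf1, a growth factor for muscle and many other cells, read 50.1 and 36.8 in bone marrow and 1952 and 1190 in muscle, 32.5-fold higher (log2 difference 5.02, SE 0.49, adjusted p = 0.000933). Gas6, a ligand that tags dying cells for uptake, read 43.9 and 46.4 in bone marrow and 854 and 2692 in muscle, 31.0-fold higher. Muscle array 2 held the higher Gas6 value and muscle array 1 the higher Igf1 value. Pros1, a second ligand of this kind, rose from 42.2 and 32.5 to 1083 and 442. Bmp2, a bone morphogenetic protein, read 5.61 and 6.87 in bone marrow and 247 and 286 in muscle. Pdgfc, a platelet-derived growth factor, rose from 58.2 and 35.2 to 652 and 495, 11.6-fold. Angpt2, which destabilises vessels, read 1.54 and 1.61 in bone marrow and 81.2 and 101 in muscle, at least 2.24-fold higher. Proteins that bind growth factors or act beside Wnt ligands had 8 of 29 tested members higher, 5 without either bone marrow array and 3 over 4 arrays. Igfbp7 rose from 58 and 63.3 to 2381 and 2275, and the matricellular Ccn1 from 24.1 and 14 to 547 and 577. Ccn2, of the same family, rose from 10.8 and 6.44 to 735 and 291. The second tested probe set of Igfbp7 gave a log2 difference of 1.71, against 5.17 for the one used.

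**Figure D2:**
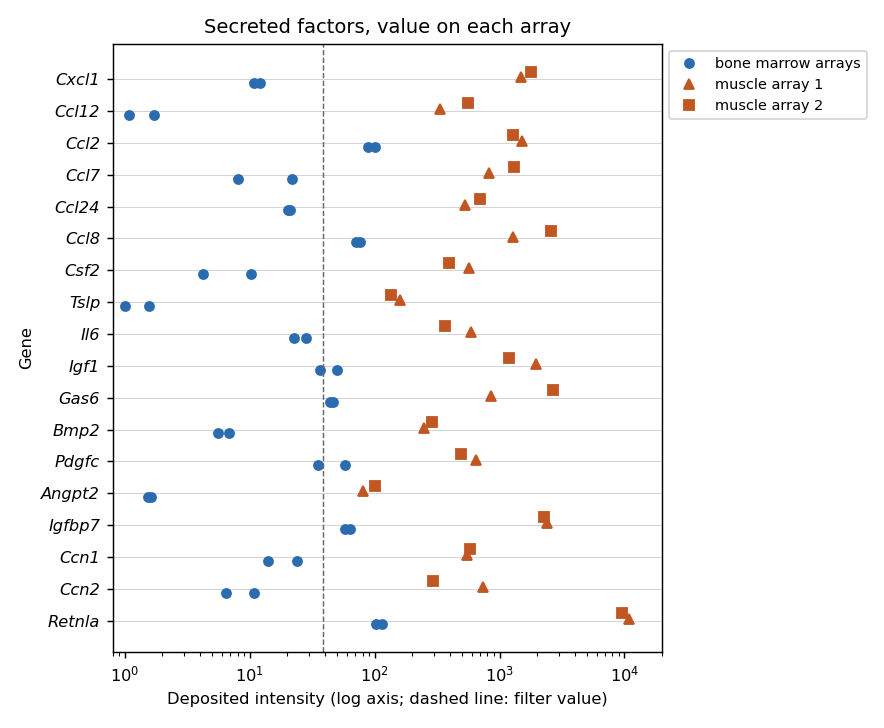
Deposited intensity (log x axis) of 18 secreted factors on each array, bone marrow as blue circles, muscle array 1 as orange triangles and muscle array 2 as orange squares; the dashed line is the filter value of 38.4. For each of the 18 genes both muscle values lie above both marrow values.

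Complement and acute phase proteins had 9 of 19 tested members higher (47.4%) and 1 lower. The higher count fell to 6 without bone marrow array 1, to 3 without bone marrow array 2 and to 3 over 4 arrays. Serping1, the inhibitor of the first complement component, read 18.7 and 30.9 in bone marrow and 1508 and 516 in muscle, at least 20.9-fold higher. C1qc, a chain of that component, read 128 and 166 in bone marrow and 1718 and 6221 in muscle, 21.8-fold higher. The other chains split the muscle arrays: C1qa, named after its values were seen, read 61.4 on muscle array 1 and 6301 on muscle array 2, with 69.9 and 209 in bone marrow, and it did not pass (adjusted p = 0.508). Lcn2, an iron-binding protein of neutrophils, was the lower member, at 5581 and 4366 in bone marrow and 1505 and 938 in muscle (adjusted p = 0.0115, and 0.0857 without bone marrow array 1).

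Secreted proteases and their inhibitors had 24 of 78 tested members higher (30.8%) and none lower. The count was 15 without bone marrow array 1 and 11 over 4 arrays. Mast cell proteases were among the leading members. Cma1, a chymase, read 36.7 and 40.2 in bone marrow and 2402 and 2258 in muscle, 55.0-fold higher (log2 difference 5.78, SE 0.3, adjusted p = 5.63e-05, and 0.0142 over 4 arrays). Cpa3, the mast cell carboxypeptidase, rose from 262 and 201 to 3734 and 2378. Pcolce, an enhancer of procollagen processing, rose from 5.34 and 5.91 to 1202 and 757, and Htra1, a serine protease, from 6.14 and 2.95 to 571 and 343. Adamts1, a proteoglycan-cleaving protease, read 14.8 and 13.9 in bone marrow and 2027 and 708 in muscle. Among resistin-like and chitinase-like proteins, 1 of 4 tested members was higher. That member, Retnla, a marker of alternatively activated macrophages, read 103 and 115 in bone marrow and 10803 and 9529 in muscle (log2 difference 6.49, SE 0.28, adjusted p = 4.24e-05). Chil3, the chitinase-like protein of macrophages and neutrophils, overlapped between tissues at 4928 and 5205 against 5165 and 3314 (adjusted p = 0.588).

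Receptors showed a smaller share of calls than their ligands among chemoattractant receptors, a difference that was not tested: 5 of 23 tested were higher and 2 lower. Over 4 arrays 2 were higher and 1 lower, and without muscle array 2 the lower count was 4. C3ar1, the receptor of complement fragment C3a, rose from 84.1 and 46.9 to 1086 and 1368, 18.3-fold. Ackr1, a chemokine-binding receptor of venules and red cells, rose from 26.4 and 38.3 to 307 and 413. Ccr9, a homing receptor of plasmacytoid dendritic cells and thymus-seeding progenitors, fell from 1489 and 1737 in bone marrow to 103 and 130 in muscle, 13.5-fold (log2 difference -3.75, SE 0.33, adjusted p = 0.000692). Its value came from a probe set whose name marks possible cross-hybridisation, and its second probe set gave a log2 difference of -4.76. Cxcr3, a receptor of activated T and NK cells, fell from 1362 and 869 to 274 and 263 (adjusted p = 0.00955), a call lost without bone marrow array 1 (0.061).

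Cytokine receptors had 5 of 41 tested members higher and none lower, but without muscle array 2 the counts were 8 and 8, and over 4 arrays 2 and 0. Csf1r, the receptor that macrophages depend on, was high in both tissues, at 1885 and 2232 in bone marrow and 7158 and 9006 in muscle, 3.91-fold higher (adjusted p = 0.00108). Osmr, the oncostatin M receptor, rose from 16.8 and 5.39 to 656 and 274, at least 10.1-fold. In the TNF receptor family 0 of 18 were higher and 1 was lower, Tnfrsf13b, a B lineage receptor, at 1855 and 855 against 438 and 212 (adjusted p = 0.038, and 0.194 without bone marrow array 1). Receptor tyrosine kinases had 8 of 28 higher and 1 lower, with 3 higher without bone marrow array 1, 4 without bone marrow array 2 and 3 over 4 arrays. Mertk, a receptor for Gas6 and Pros1, rose from 36.5 and 27.6 to 281 and 292, at least 6.85-fold. Flt3, the receptor of lymphoid and dendritic cell progenitors, fell from 854 and 905 to 132 and 202 (adjusted p = 0.0108). The Flt3 call was lost without bone marrow array 1 (0.0652) or array 2 (0.0714). TGF-beta family receptors had 3 of 11 higher, and 0 without either bone marrow array, over 4 arrays or with median centring.

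Lectin, scavenger and Toll-like receptors held the largest number of higher members among the receptor lists, 17 of 56 tested (30.4%), with none lower. The count was 12 without either bone marrow array and 8 over 4 arrays. Mrc1, the macrophage mannose receptor, read 196 and 112 in bone marrow and 5495 and 5070 in muscle, 34.7-fold higher (log2 difference 5.12, SE 0.28, adjusted p = 7.7e-05). Folr2, a folate receptor of resident macrophages, rose from 34.1 and 38 to 1388 and 2562, and Cd163, the haptoglobin-hemoglobin scavenger, from 40.9 and 35.3 to 1295 and 1530. Lyve1, a hyaluronan receptor of lymphatic vessels and vessel-associated macrophages, read 12.6 and 1.76 in bone marrow and 3150 and 2276 in muscle, at least 63.3-fold higher. Both muscle values of these 4 genes lay far above both marrow values. Cd36, a fatty acid and lipoprotein receptor, rose from 66.8 and 42 to 2228 and 1273, and Cd14, the lipopolysaccharide coreceptor, from 226 and 288 to 2146 and 4708.

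Fc and paired immunoglobulin-like receptors had 6 of 33 higher and 2 lower, with 1 higher and 0 lower over 4 arrays. The higher count was 4 without bone marrow array 1, 3 without bone marrow array 2 and 9 without muscle array 1, and the lower count was 5 without muscle array 2. Fcrls, an Fc receptor-like protein of resident macrophages, rose from 40.7 and 33.8 to 1361 and 3720. Klra17, a lectin-like receptor, fell from 944 and 471 to 83.4 and 74.1 (adjusted p = 0.00456, and 0.0601 over 4 arrays). Integrins and adhesion molecules had 6 of 51 higher and 1 lower, and G protein-coupled receptors for lipid mediators, nucleotides and hormones 4 of 39 and 1. The adhesion count was 3 without either bone marrow array, and 12 without muscle array 2. The count of these G protein-coupled receptors was 2 without bone marrow array 2 and 7 without muscle array 1. Ramp2, a partner of the adrenomedullin receptor, rose from 53.3 and 42 to 856 and 640, while Ramp1, of the same family, fell from 1169 and 1327 to 279 and 356. The Ramp1 call (adjusted p = 0.00982) was lost without bone marrow array 1 (0.0509) or array 2 (0.0664).

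Transcription factors of mesenchymal, vascular and myogenic cells had 14 of 40 tested members higher (35%) and none lower, but only 2 without bone marrow array 1, 6 without bone marrow array 2, 8 without muscle array 1 and 6 over 4 arrays. Sox17, an endothelial factor, read 8.98 and 17.5 in bone marrow and 1069 and 388 in muscle (adjusted p = 0.00742), a call lost without bone marrow array 1 (0.0687). Sox7, a related factor, read 5.09 and 20.4 in bone marrow and 591 and 242 in muscle (adjusted p = 0.00623, and 0.0509 without bone marrow array 1). Sox17 was read from a probe set whose name marks possible cross-hybridisation. Its other tested probe set gave a log2 difference of 1.58, against 5.28 for this one. Meox2, a homeobox factor of limb mesenchyme and vessels, read 2.25 and 2.19 in bone marrow and 576 and 203 in muscle, at least 8.17-fold higher (adjusted p = 0.000895), and kept its call under every setting. Homeobox factors as a list had 5 of 42 higher and 1 lower, with 1 higher without bone marrow array 1, 2 without bone marrow array 2 and 2 without muscle array 1. Meis1, a stem cell homeobox factor, was the lower one, at 502 and 314 in bone marrow and 7.89 and 27.9 in muscle. Its call (adjusted p = 0.0271) was lost without bone marrow array 1 (0.185), bone marrow array 2 (0.122) or muscle array 1 (0.0729).

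Stem, erythroid and myeloid factors had no higher and 4 lower members of 33 tested, and 0 lower without either bone marrow array. Irf8, which directs dendritic cell and monocyte development, fell from 6280 and 6537 to 1079 and 2232, 4.12-fold (log2 difference -2.04, SE 0.35, adjusted p = 0.0117). Its call was lost without bone marrow array 1 (0.0774) or array 2 (0.0815). Nfe2, an erythroid and megakaryocyte factor, fell from 479 and 366 to 102 and 69.5 (adjusted p = 0.0239), with 0.161 and 0.0985 in the same pair of fits. Macrophage and mast cell factors had 6 of 25 higher, 4 and 3 without bone marrow array 1 and 2, and 0 over 4 arrays. Mitf, a mast cell and pigment cell factor, rose from 62 and 51.5 to 317 and 326, and Ahr, the aryl hydrocarbon receptor, from 221 and 118 to 1124 and 811. Immediate early and Kruppel-like factors had 6 of 31 higher and none lower, with 10 higher without muscle array 2 and 2 over 4 arrays. Atf3, a stress-induced factor, rose from 1037 and 1368 to 4500 and 5970, and Ier3, an early response gene, from 803 and 1082 to 4601 and 6222. Both were already high in bone marrow. Cell cycle factors had 2 of 22 lower, Uhrf1 and Hmgb3, and 0 without bone marrow array 1. Lymphoid and plasmacytoid factors had 1 of 29 higher, near the 5.72% of all genes, and nuclear receptors 1 of 25.

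**Figure D3:**
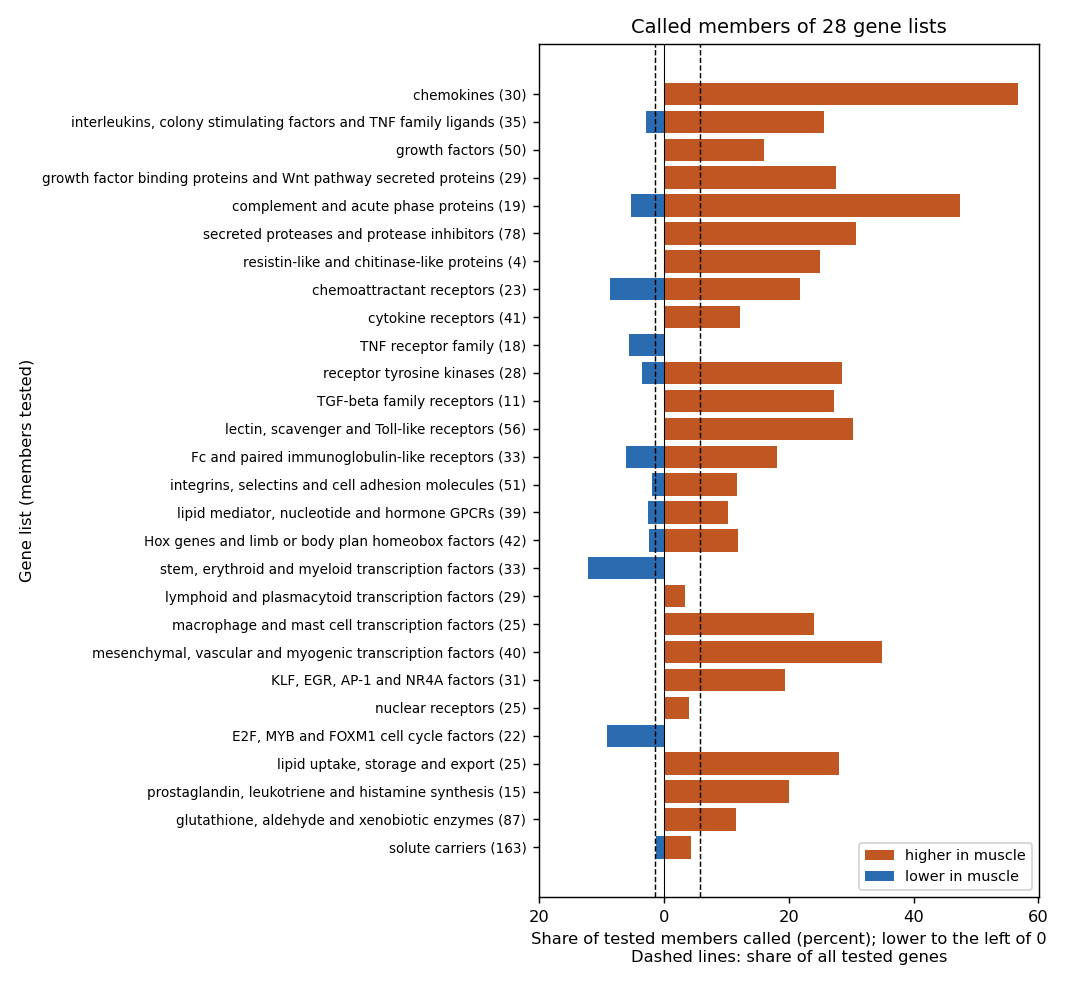
Share of tested members called higher (orange, to the right) or lower (blue, to the left) in muscle for 28 lists of secreted factors, receptors, transcription factors and metabolic genes, in percent, with the number tested after each name. Dashed lines mark 5.72% and 1.38%, the shares of all tested genes; chemokines reach 56.7% and TNF receptors, stem cell factors and cell cycle factors have no orange bar.

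Among metabolic lists, genes of lipid uptake, storage and export had 7 of 25 tested members higher, and 4 over 4 arrays. Fabp4, a fatty acid carrier of fat cells, capillaries and macrophages, read 33.8 and 35.7 in bone marrow and 6521 and 4101 in muscle, at least 122-fold higher (adjusted p = 4.85e-05). Lpl, which releases fatty acids from lipoproteins, rose from 456 and 321 to 6546 and 4273, and Fabp5 from 448 and 534 to 2254 and 2808. Fat cell markers summed to 202 and 313 in bone marrow and 566 and 566 in muscle, with 1 of 4 tested higher. That one, Car3, a carbonic anhydrase, read 37.6 and 53.9 in bone marrow and 302 and 236 in muscle (adjusted p = 0.0201, with 0.0703 over 4 arrays), and Adipoq, the fat cell hormone, read 9.01 and 11.2 against 38.7 and 1. Their part in the lipid genes was not tested. Enzymes of glutathione, aldehyde and xenobiotic metabolism had 10 of 87 higher, but 3 without bone marrow array 1, 5 without bone marrow array 2 and 2 over 4 arrays. Aldh1a2, which makes retinoic acid, rose from 6.58 and 5.63 to 191 and 176. Cbr2, a carbonyl reductase, rose from 25 and 18.4 to 1529 and 4463. Prostaglandin, leukotriene and histamine genes had 3 of 15 higher, and 7 without muscle array 2. Solute carriers, with 7 of 163 higher (4.29%) and 2 lower (1.23%), lay near the shares of all genes. Over 4 arrays the counts were 1 and 0.

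Some genes were measured at high intensity in both tissues. On each of the 4 arrays 385 genes, 3.11% of all named, lay at or above the 95th percentile. Of these, 372 (96.6%) differed by less than 2-fold, with a median absolute log2 difference of 0.22. The genes were chosen for high values on every array, so these small differences are a description. Among the 385, 371 did not pass the test, 13 were higher and 1 was lower in muscle. By symbol, the list held 32 of 50 genes named Rpl or Rps with a number, 20 of 86 respiratory chain genes and 11 of 53 translation factor genes. It also held 10 of 36 actin, tubulin and related genes and 5 of 21 histocompatibility genes. The first count leaves out Rpsa, Rplp0 and Rplp2, which were in the list, and takes in the related Rpl22l1. Rps3, a small subunit ribosomal protein, read 10004 and 10658 in bone marrow and 10011 and 10139 in muscle. H2-K1, a class I histocompatibility gene, read 7955 and 9372 in bone marrow and 8212 and 8690 in muscle. Grn, the lysosomal growth factor progranulin, read 7305 and 9654 in bone marrow and 10218 and 10803 in muscle. The 13 higher genes were Lyz2, Lamp1, Zfp36, Crip1, Selenop, Vim, Rtn4, Cd83, Rab1a, Csf1r, Cst3, Ctsc and Litaf. Over 4 arrays the call held for Selenop and Csf1r and was lost for the other 11 (adjusted p of 0.0906 to 0.246). Selenop, a secreted selenium carrier, read 2776 and 2364 in bone marrow and 9260 and 7727 in muscle. The lower gene was Ighm, the IgM heavy chain, at 7461 and 8383 against 2970 and 4706 (adjusted p = 0.0423, and 0.137 without bone marrow array 1).

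At the other end, 41 genes lay at or above the 80th percentile on both muscle arrays and under 38.4 on both marrow arrays, while 0 genes had the opposite pattern. These genes were chosen by their levels in the tissues compared, so their differences are a description. Besides the chemokines and cytokines above, they included genes of connective tissue, vessels and muscle fibres. Sparc, a collagen-binding protein, read 4.88 and 10.5 in bone marrow and 3110 and 1737 in muscle. Tm4sf1, an endothelial surface protein, read 1.89 and 1.84 in bone marrow and 3243 and 1500 in muscle. Tnnc2, the calcium sensor of fast muscle fibres, read 2.49 and 2.18 in bone marrow and 1329 and 1320 in muscle. Pmp22, a membrane protein of Schwann cells and other cells, read 18.2 and 27 in bone marrow and 3953 and 3095 in muscle. Dab2, an endocytic adaptor of macrophages and other cells, just missed the pattern at 46.7 and 35 in bone marrow and 5015 and 4466 in muscle. Without bone marrow array 2 or muscle array 2 the opposite pattern held 4 or 8 genes, and without muscle array 2 the first pattern held 96.

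Marrow-derived cells were set apart by plasmacytoid dendritic cell markers, of which 13 of 16 were on the array and tested. Of the 13, 8 (61.5%) were lower in muscle and none was higher, with a median log2 difference of -3.01. The count was 3 without bone marrow array 1, 3 without bone marrow array 2 and 5 over 4 arrays. Dntt, the lymphoid enzyme that adds bases at antigen receptor joints, read 4032 and 4104 in bone marrow and 242 and 446 in muscle, 12.3-fold lower (log2 difference -3.62, SE 0.46, adjusted p = 0.00325). The name of this probe set also marks possible cross-hybridisation, and the 2 other tested probe sets of Dntt gave -4.05 and -1.48. Cox6a2, a respiratory chain subunit of striated muscle and plasmacytoid dendritic cells, fell from 2435 and 1892 to 177 and 335, 8.68-fold. Muscle fibre markers were higher in the muscle samples, and the cell source of Cox6a2 was not tested. Bst2, a surface protein of these cells that tethers enveloped viruses, fell from 2015 and 1933 to 90.5 and 339 (adjusted p = 0.00716). Its call was lost without bone marrow array 1 (0.062) or array 2 (0.0565). Klk1, a tissue kallikrein, fell from 1113 and 1115 to 99.3 and 136 (adjusted p = 0.0122), also lost without bone marrow array 1 (0.086) or array 2 (0.0833). Klk1 and Klk1b27 belong to a family of near-identical genes, so their probe sets may share signal. Spib, a factor these cells require, read 2377 and 2541 in bone marrow and 168 and 537 in muscle, and just missed the threshold (adjusted p = 0.0506). Tcf4, their master regulator, read 653 and 1204 in bone marrow and 933 and 837 in muscle (adjusted p = 0.996). Only this probe set did not follow in direction, as its 4 other tested probe sets had log2 differences of -1.16 to -0.29. The tests of those 4 are not given here. Bst2, Klk1, Klk1b27, Cox6a2 and Tcf4 were named after their values were seen. Dntt, Ly6d and Ccr9, among the 8 lower markers, are also lower members of the early lymphoid progenitor list below. Their calls therefore do not tell those cell types apart. The remaining lower member of that list is Flt3.

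**Figure D4:**
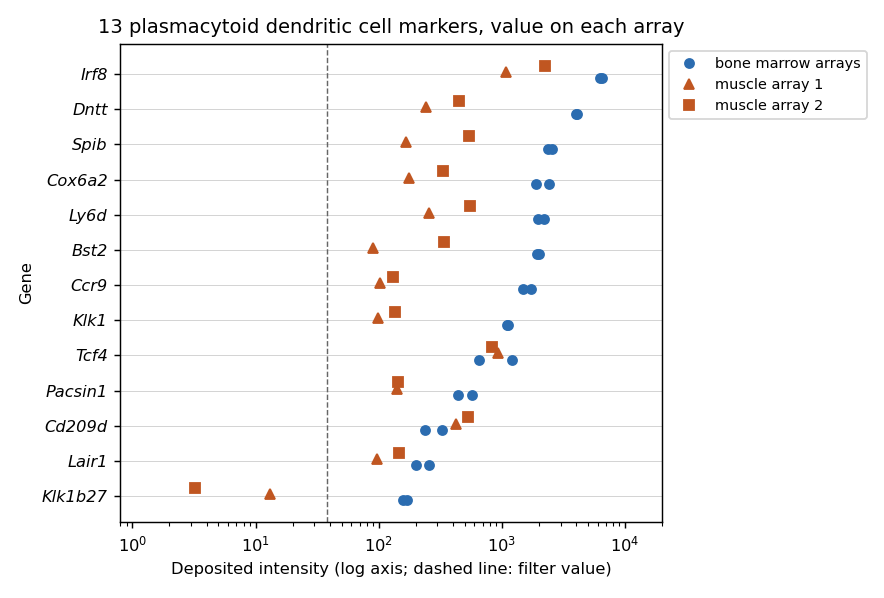
Deposited intensity (log x axis) of the 13 tested plasmacytoid dendritic cell markers on each array, ordered by marrow mean, with bone marrow as blue circles, muscle array 1 as orange triangles and muscle array 2 as orange squares. For Dntt the marrow values of 4032 and 4104 lie far to the right of 242 and 446 in muscle. Those of the Tcf4 probe set shown enclose both muscle values.

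Early lymphoid progenitor markers had 4 of 10 tested members lower, 2 without either bone marrow array, and B lineage markers 3 of 8, 0 without either bone marrow array. Cd79b, a B cell receptor subunit, fell from 3030 and 3161 to 330 and 806 (adjusted p = 0.0176, with 0.102 and 0.105 in those fits). Igha, the IgA heavy chain, fell from 9078 and 9579 to 990 and 945, 9.61-fold (adjusted p = 0.00146), and Gimap7, a lymphocyte GTPase, from 1070 and 1167 to 148 and 141, both under every setting. The plasma cell list had 0 of 5 called, with Jchain, the joining chain of secreted immunoglobulin, at 4052 and 3439 in bone marrow and 2221 and 2883 in muscle. Natural killer markers had 2 of 8 lower, and 1 without either bone marrow array. Nkg7, a cytotoxic granule protein, fell from 1533 and 2139 to 293 and 371 (adjusted p = 0.00346, and 0.0577 over 4 arrays). Over 4 arrays the early lymphoid, B lineage and natural killer lists had 2, 1 and 0 lower members. Of all tested genes 1.38% were lower, and 0.127% over 4 arrays. D13Ertd608e, an uncharacterised gene, fell from 4889 and 6676 to 676 and 644.

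Markers of cells outside the CD45+ gate moved with these differences. For the counts that follow, 5.72% of all tested genes were higher in muscle, and 1.99% over 4 arrays. Summed intensity of 12 fibroblast markers was 1095 and 2144 in bone marrow and 32790 and 9368 in muscle, with 10 of 12 higher, and 6 over 4 arrays. That of 16 endothelial markers was 1075 and 1270 against 10100 and 9771, with 10 of 15 tested higher, and 4 without bone marrow array 1. Muscle fibre markers summed to 458 and 518 against 4390 and 7074, with 9 of 12 higher, and pericyte and smooth muscle markers to 571 and 720 against 9073 and 8361, with 7 of 10, and 4 without either bone marrow array or without muscle array 1. No fibroblast or muscle fibre marker lay under 38.4 on either muscle array, whereas 10 and 8 of the 12 fibroblast markers did so on the marrow arrays. Of the fibroblast sums, Thy1 alone made up 897 and 1774 in bone marrow and 1093 and 873 in muscle. Thy1 was not called. The 5 tested endothelial markers not called were Cdh5, Pecam1, Tie1, Egfl7 and Sox18, with log2 differences of 1.09, -0.49, 2.34, -0.05 and 3.50. Over 4 arrays 5 endothelial markers were higher. Thy1 and these uncalled endothelial markers were named after their values were seen. Macrophage markers summed to 4778 and 4157 in bone marrow and 29070 and 46520 in muscle, with 9 of 11 higher, and mast cell markers to 1524 and 1667 against 8435 and 8855, with 4 of 9. The part of these cell types in the secreted factor, receptor and transcription factor differences was not tested. In sorted bulk samples, fewer cells of a type and less RNA per cell cannot be told apart.

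**Figure D5:**
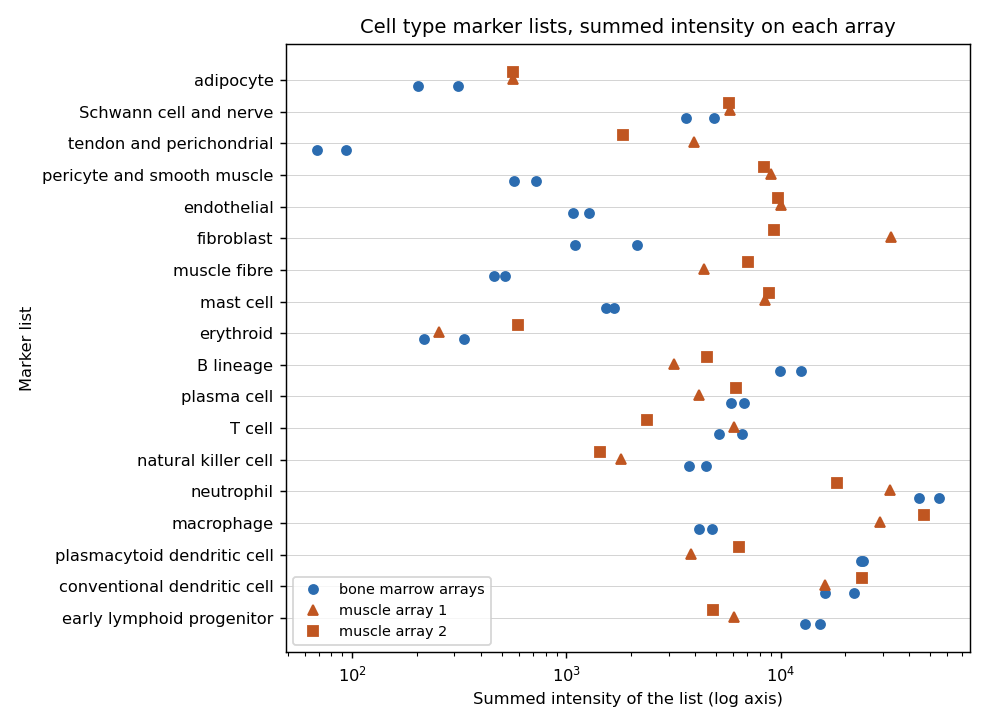
Summed intensity (log x axis) of 18 lists of cell type markers on each array, with bone marrow as blue circles, muscle array 1 as orange triangles and muscle array 2 as orange squares. The fibroblast sum is 32790 on muscle array 1 and 9368 on muscle array 2, and the macrophage sum is 29070 and 46520.

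The muscle arrays differed from each other. Of 12 fibroblast markers 10 were higher on muscle array 1 and 2 on muscle array 2, and of 11 macrophage markers 3 were higher on array 1 and 8 on array 2. Dcn, a collagen-binding proteoglycan of fibroblasts, read 7308 on muscle array 1 and 726 on muscle array 2, and Col3a1, a fibrillar collagen, 7755 and 1402. Hmox1, which breaks down heme, read 315 and 2380, and C1qb 512 and 4914. With bone marrow at 8.69 and 17.5 for Dcn and 126 and 123 for C1qb, all muscle values of both genes still lay above both marrow values. Hmox1 and C1qb were named after their values were seen.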

How the data were processed

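RNA of CD45+/Sca1+ cells was measured on 8 Affymetrix mouse 430A arrays in 4 groups of 2. Biotin labelling followed a one-cycle protocol from 1 µg of total RNA, per the labels. The deposited values are linear intensities, 1 per probe set, scaled by the authors to a common trimmed mean. The submitters' processing notes name GCOS, with no version; how probes were summarised is not given in the sources used here. Control probe sets (64 of 22690) were left out, and 20380 of the other 22626 had 1 gene. Intensities below 1 were raised to 1, 4 (the 10th percentile) was added, and log2 was taken. The 16289 probe sets at or above 38.4, the 40th percentile, on at least 2 of 8 arrays were tested.

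The groups were compared in limma 3.58.1 (R 4.3.3) with 1 mean per group on all 8 arrays, an intensity trend, two-sided tests and Benjamini-Hochberg adjustment over these probe sets at 0.05. The probe set with the highest mean log2 value stands for its gene. With 2 arrays a group, the number of arrays limits the precision. Alternatives changed the scaling, pseudocount, filter, arrays fitted, trend, array weights, probe set rule and replicate block, and left out each array.

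Named genes were the up to 6 members of each functional list with the smallest p and up to 3 markers per cell type. To these come the 12 largest rises and falls outside the lists, the 15 highest genes in both tissues, and Ptprc. Other names are marked, or complete or explain a count. Adipoq, Ifng, Ighm and Selenop were also named after their values were seen. The members and lists were chosen with earlier results of these data known.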

Additional observations from a re-analysis of the deposited data

How the results depend on the processing

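The count of genes higher in muscle was 543 and that of genes lower was 131. Scaling, pseudocount, filter, trend and probe set rule kept both counts within 1.5 times, at 468 to 594 higher and 103 to 187 lower. Only the 4 compared arrays gave 189 higher and 12 lower, and array weights gave 313 and 23. Leaving out 1 array gave 316 to 828 higher and 23 to 1210 lower. Genes high in both tissues numbered 385, or 836 at the 90th percentile, and 407 to 452 with 1 array left out. Genes high in muscle and low in bone marrow numbered 41, or 14 at the 90th percentile, and 50 to 96 with 1 array left out; the opposite pattern held 0, and 0 to 8 with 1 array left out. With the replicate block, 529 genes were higher and 113 lower. Same-numbered arrays of bone marrow and muscle deviated together (r = 0.313; -0.032 to 0.003 for the other pairs of groups), but the labels give no shared source for a number, and 2 arrays a group cannot show a pairing. Of 174 named calls, 83 were lost over 4 arrays, 53 with array weights, 62 and 49 without bone marrow array 1 and 2, and 22 and 1 without muscle array 1 and 2. Mbp was reversed from -0.71 to 3.23 (log2) with the mean of its probe sets, which disagree. With 2 arrays a group, low signals over background limit what folds of dim genes can show.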
